A study of Mus musculus with 6 samples.

Results

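Matrix-remodelling proteases and their inhibitors were examined in bone marrow-derived macrophages (BMDMs) that carried or lacked PYK2. The genes were chosen by name as rows of the count table. They were the matrix metalloproteinases (MMPs) Mmp9, Mmp12, Mmp13, Mmp14 and Mmp19, the related metalloprotease Adam8, the tissue inhibitors of metalloproteinases (TIMPs) Timp1 and Timp2, and the urokinase pair Plau and Plaur. All 10 were found among the 55291 genes of the table, of which 18659 had at least 1 count and 9815 passed the filter on low counts. Of the 10 genes, 7 passed that filter and were tested, and 3 (Mmp13, Timp1 and Plau) did not.

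BMDMs are primary macrophages grown from marrow of the femur and tibia. Marrow cells of C57BL/6 mice were cultured for 7 days with 20% medium conditioned by L929 fibroblasts, which supplies M-CSF, and fresh medium was added after 3 days. One group came from 3 WT mice (libraries 1, 5 and 6) and the other from 3 PYK2 KO mice (libraries 2, 3 and 4), which lacked PYK2 in all cells and not in macrophages alone. Both groups received the same medium, neither was given a polarizing cytokine, and the sex and age of these mice are not given in the sources used here. RNA was measured by a bulk form of MARS-seq, which counts tags from the 3′ ends of polyadenylated transcripts. With 3 mice of each genotype, p-values set the difference between genotypes against the spread between mice. That spread was estimated with information shared across genes. PYK2 is a cytoplasmic tyrosine kinase related to FAK, and the comparison asked which transcripts of the macrophage differed when it was absent.

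MMPs are zinc-dependent enzymes that cleave collagens, elastin, laminins and other proteins of the extracellular matrix. Most are secreted as inactive precursors, some are anchored in the membrane, and TIMPs bind and block the active enzymes. Urokinase, the product of Plau, binds its receptor uPAR, the product of Plaur, and turns plasminogen into plasmin, which cleaves matrix and activates some MMP precursors. Macrophages use these systems to move through tissue and to remodel it.

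The libraries held 2857097 to 3917207 counts, and the 10 genes together took 4295 to 6004 of them, or 0.149% to 0.179% of a library. Ptk2b, which encodes PYK2, had 188, 196 and 199 CPM in the WT libraries and 22.8, 22.2 and 20.6 CPM in the PYK2 KO libraries, where CPM is the count set to a common library total with edgeR's TMM factors. It fell by 3.15 on the log2 scale (SE 0.10, adjusted p = 1.03e-11, edgeR's quasi-likelihood test, Benjamini-Hochberg adjusted). Of 8 macrophage markers all 8 were tested and 0 passed, with a summed level of 29147 to 29897 CPM in WT and 30334 to 31331 CPM in PYK2 KO. These summed ranges did not overlap. Most of the sum was Lyz2, with 69149 to 92161 counts in WT libraries and 71640 to 85313 in PYK2 KO libraries. All 6 dendritic cell markers and all 6 erythroid markers were at 0 counts, and 7 fibroblast markers summed to at most 1.40 CPM. The 5 B cell markers summed to 13.8 to 23.2 CPM, all of it Cd79b, and the 6 T cell markers to 4.47 to 9.24 CPM. B2m split the libraries across genotypes, with 971, 1046 and 1521 CPM in WT library 1 and PYK2 KO libraries 3 and 4, and 213 to 523 CPM in the other 3.

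Sequences upstream of the start sites are shown for members that differ in whether they could be tested, and for neighbours of one gene cluster. The set of RefSeq promoters used here, on GRCm38.p6, held 8 entries for 7 members and none for Mmp9, Mmp19 and Plau. Each line gives the 250 bases before a start in the direction of transcription. Capitals mark matches to the AP-1 motif (TGAGTCA or TGACTCA) and to the GC box (GGGCGG or its complement CCGCCC), both searched on both strands. Mmp13 lies at chr9:7272264-7272513 and Mmp12 at chr9:7344147-7344396 (upstream start) and chr9:7347124-7347373 (downstream start), all on the plus strand. Mmp14 lies at chr14:54431348-54431597 and Plaur at chr7:24462233-24462482, both on the plus strand, and Timp2 at chr11:118355412-118355661 on the minus strand.
Mmp13: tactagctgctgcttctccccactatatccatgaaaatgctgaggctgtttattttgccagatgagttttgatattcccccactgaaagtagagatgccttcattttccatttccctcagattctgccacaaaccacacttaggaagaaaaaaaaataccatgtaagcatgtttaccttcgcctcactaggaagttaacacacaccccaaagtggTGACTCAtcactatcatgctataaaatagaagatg
Mmp12, upstream start: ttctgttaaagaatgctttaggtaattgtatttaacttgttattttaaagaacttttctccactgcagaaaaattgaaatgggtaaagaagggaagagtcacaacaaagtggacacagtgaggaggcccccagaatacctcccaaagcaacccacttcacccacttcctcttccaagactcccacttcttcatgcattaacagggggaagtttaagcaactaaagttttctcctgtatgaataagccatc
Mmp12, downstream start: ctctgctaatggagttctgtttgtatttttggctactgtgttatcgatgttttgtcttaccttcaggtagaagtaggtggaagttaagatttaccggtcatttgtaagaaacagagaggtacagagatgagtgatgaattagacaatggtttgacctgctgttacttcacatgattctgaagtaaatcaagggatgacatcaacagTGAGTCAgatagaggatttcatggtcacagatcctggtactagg
Mmp14: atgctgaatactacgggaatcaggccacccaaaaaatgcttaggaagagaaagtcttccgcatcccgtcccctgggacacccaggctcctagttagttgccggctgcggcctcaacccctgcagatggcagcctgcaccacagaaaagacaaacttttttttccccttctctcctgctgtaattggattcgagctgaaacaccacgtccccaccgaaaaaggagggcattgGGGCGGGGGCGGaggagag
Plaur: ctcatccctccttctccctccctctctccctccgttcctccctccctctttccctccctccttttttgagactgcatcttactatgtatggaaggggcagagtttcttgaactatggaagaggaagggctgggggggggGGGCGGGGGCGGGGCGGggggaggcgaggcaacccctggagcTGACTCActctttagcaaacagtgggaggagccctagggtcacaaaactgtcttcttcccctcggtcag
Timp2: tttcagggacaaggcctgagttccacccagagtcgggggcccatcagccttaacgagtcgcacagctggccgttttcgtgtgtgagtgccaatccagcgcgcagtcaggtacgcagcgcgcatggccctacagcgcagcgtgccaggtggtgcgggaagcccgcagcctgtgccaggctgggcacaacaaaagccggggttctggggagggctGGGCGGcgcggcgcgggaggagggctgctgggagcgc

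AP-1 is the dimer of Fos and Jun proteins, and AP-1 sites are a classical element of MMP promoters. An AP-1 match began 35 bases before the start of Mmp13, 44 before the downstream start of Mmp12 and 69 before the start of Plaur, and 4.46% of all 32851 mouse promoters of this length held one. Mmp13 also held a TATA match (TATAAA) 16 bases before its start, against 12.4% of promoters. GC boxes were found in Mmp14 (19 and 13 bases before), Timp2 (37), Timp1 (8), Adam8 (35) and Plaur (111, 105 and 100, the last overlapping its neighbour by 1 base), against 32.7% of promoters. The core of the PU.1 motif (GAGGAA) was found before the upstream start of Mmp12 (86) and before Plaur (216 and 131), against 23.3% of promoters. Mmp13 had at most 5 counts in any library, and Mmp12 and Plaur had at least 133 and 230. The upstream entry of Mmp12 held no AP-1 match, and the start in use was not measured. Any part of these motifs in the counts was not tested. A match describes letters only and no binding was measured.

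None of the 7 tested members passed the test between genotypes, and in all 7 the WT and PYK2 KO values overlapped. At an adjusted p under 0.05 by edgeR's quasi-likelihood test, Benjamini-Hochberg adjusted 0 of 7 passed, against 0.255% of all tested genes, and at an unadjusted p under 0.05 again 0 of 7, against 6.03%. DESeq2, limma voom and edgeR's likelihood ratio test also called 0. The WT and PYK2 KO values were apart in 0 of 7, against 10.2% of all tested genes. With 7 genes, a count of 0 is near what these shares give, so the intervals below say more than the counts. The estimates were higher in PYK2 KO for 3 members and lower for 4, with a median log2 fold change of -0.0019 against 0.0019 over all tested genes. Their median distance from 0 was 0.03 on the log2 scale, against 0.10 over all tested genes, and their median SE was 0.12. Since whole cultures were measured, fewer cells that express a gene and less RNA per cell cannot be told apart.

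**Figure D1:**
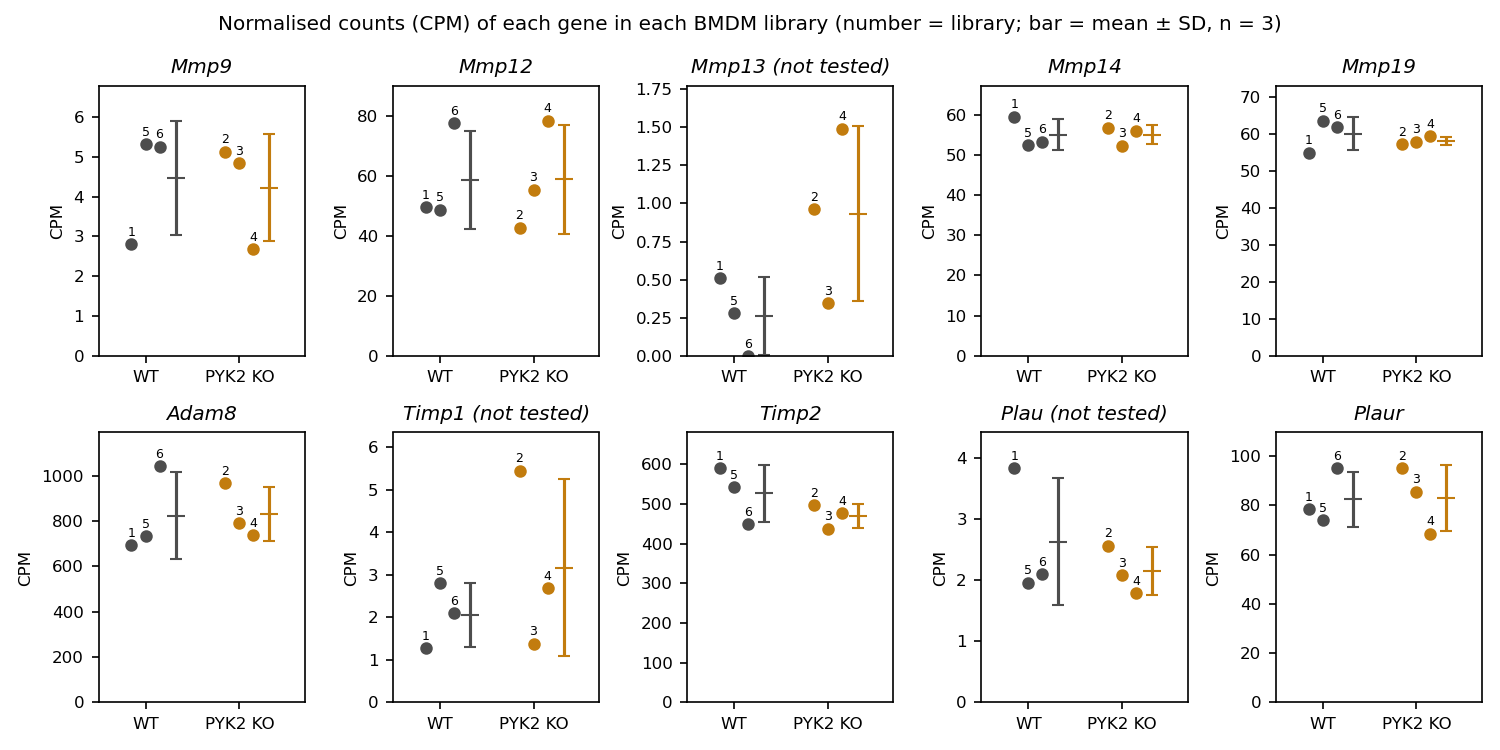
Normalised counts (CPM, vertical axis, starting at 0) of the 10 genes in the 3 WT and 3 PYK2 KO libraries, each point 1 mouse with its library number and the bar the mean ± SD. The genotypes overlap in every panel, and Mmp12 reaches 77.5 CPM in WT library 6 and 78.4 CPM in PYK2 KO library 4.

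Among the secreted proteases, Mmp12 encodes macrophage metalloelastase, which cleaves elastin. It lies on chromosome 9 from 7344381 to 7369499 (GRCm38, GENCODE M21). It had 49.5, 48.7 and 77.5 CPM in WT libraries 1, 5 and 6 and 42.7, 55.4 and 78.4 CPM in PYK2 KO libraries 2, 3 and 4. Each genotype held 1 library near 78 CPM, well above its other 2, and the ranges lay over each other. The mean was 58.6 ± 16.4 CPM for WT BMDMs and 58.8 ± 18.1 CPM for PYK2 KO BMDMs (SD, n = 3 mice each). The log2 fold change was 0.03 (SE 0.20, 95% interval -0.39 to 0.45, adjusted p = 0.994, edgeR's quasi-likelihood test, Benjamini-Hochberg adjusted), so fold changes between 0.764 and 1.36 lay inside the interval. This estimate depended on single libraries, since leaving out WT library 6 gave 0.27 and leaving out PYK2 KO library 4 gave -0.24.

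Mmp9, which encodes gelatinase B, was found at low counts in every library (chromosome 2, 164940780 to 164955850). WT libraries 1, 5 and 6 held 11, 19 and 15 counts of Mmp9, and PYK2 KO libraries 2, 3 and 4 held 16, 14 and 9. The lowest WT library and the lowest PYK2 KO library were close to each other, at 2.81 and 2.68 CPM. The means were 4.46 ± 1.43 and 4.22 ± 1.34 CPM (SD, n = 3 mice each), with a log2 fold change of -0.07 (SE 0.36, 95% interval -0.83 to 0.70). Fold changes between 0.563 and 1.62 lay inside this interval, the widest of the 7. Its estimate turned positive in 3 of the 6 fits with 1 library left out, from -0.34 without WT library 1 to 0.19 without PYK2 KO library 4.

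Mmp19, an MMP with broad matrix substrates, was among the most even genes of the group (chromosome 10, 128790910 to 128800824). It had 54.9, 63.5 and 61.7 CPM in WT and 57.1, 57.8 and 59.3 CPM in PYK2 KO. The 3 PYK2 KO values fell inside the WT range. Its log2 fold change was -0.04 (SE 0.10, 95% interval -0.26 to 0.17). Mmp19 shares part of its end with Tmem198b on the opposite strand, which had 47 to 80 counts, and since strand use in counting is not given in the sources used here, reads of the 2 genes may not be separable.

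Mmp13, which encodes a collagenase, was at or near the floor (chromosome 9, 7272514 to 7283331). Its counts were 2, 1 and 0 for WT and 3, 1 and 5 for PYK2 KO, so 5 of 6 libraries held 3 counts or fewer. The pooled counts were 3 in WT and 9 in PYK2 KO, a ratio of 3.31 with a 95% counting interval of 0.827 to 19.0. That interval covers counting error only and includes no change, and Mmp13 was not tested.

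Mmp14 encodes MT1-MMP, a membrane-anchored collagenase that also activates proMMP2 in a complex with TIMP2. It lies on chromosome 14 from 54431612 to 54445364, 11.7 Mb from Ptk2b. It had 59.5, 52.3 and 53.3 CPM in WT and 56.8, 52.3 and 56.0 CPM in PYK2 KO. The means were both 55.0 CPM, with an SD of 3.89 in WT and 2.40 in PYK2 KO (n = 3 mice each). The log2 fold change was -0.0019 (SE 0.11, 95% interval -0.23 to 0.22, adjusted p = 0.999, edgeR's quasi-likelihood test, Benjamini-Hochberg adjusted). A rise of more than 1.17-fold or a fall below 0.854 of the WT level lay outside the interval.

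Adam8 encodes a membrane-bound metalloprotease with a disintegrin domain that is found on leukocytes (chromosome 7, 139978932 to 139992562, minus strand). It had 693, 733 and 1042 CPM in WT and 965, 791 and 736 CPM in PYK2 KO. WT library 6 and PYK2 KO library 2 were high and the other 4 libraries lay between 693 and 791 CPM. The means were 823 ± 191 and 831 ± 120 CPM (SD, n = 3 mice each), with a log2 fold change of 0.02 (SE 0.13, 95% interval -0.27 to 0.30). Leaving out WT library 6 gave an estimate of 0.22 and leaving out PYK2 KO library 2 gave -0.11, neither past the threshold. Gm16201, a transcript on the opposite strand that meets the end of Adam8, had 9 to 35 counts, against 2283 to 3009 for Adam8.

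**Figure D2:**
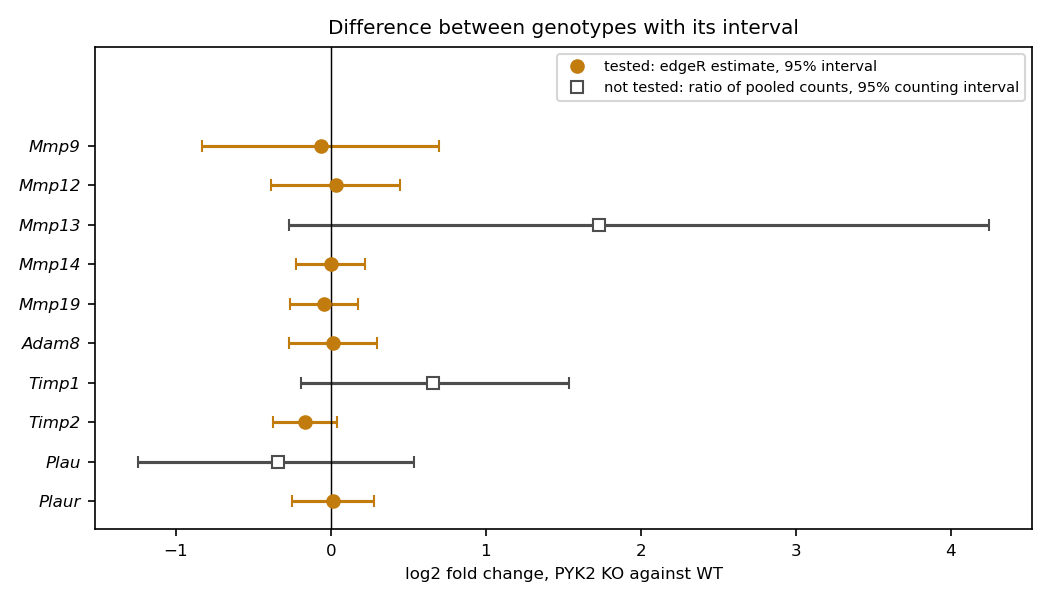
Log2 fold change of each gene in PYK2 KO against WT BMDMs (horizontal axis), with filled points for edgeR estimates and 95% intervals, and open squares for the log2 ratio of pooled counts of the 3 genes that were not tested, with 95% counting intervals. All 10 intervals include 0, and those of Mmp14, Mmp19 and Timp2 are the narrowest.

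Timp2 encodes an inhibitor that binds both active MMPs and proMMP2 (chromosome 11, 118301069 to 118355740, minus strand). It had 590, 542 and 449 CPM in WT libraries 1, 5 and 6 and 496, 437 and 476 CPM in PYK2 KO libraries 2, 3 and 4. WT libraries 1 and 5 lay above all PYK2 KO values, and WT library 6 lay among them. The means were 527 ± 71.6 and 470 ± 30.1 CPM (SD, n = 3 mice each), so that PYK2 KO BMDMs held 89.1% of the WT mean. Its log2 fold change was -0.17 (SE 0.10, 95% interval -0.38 to 0.04, unadjusted p = 0.111, adjusted p = 0.898, edgeR's quasi-likelihood test, Benjamini-Hochberg adjusted), the smallest p of the members. The estimate was below 0 in all 13 other fits, between -0.27 without WT library 6 (unadjusted p = 0.0109, adjusted p = 0.616, same edgeR test) and -0.08 without WT library 1.

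Timp1, the other inhibitor, was counted 5, 10 and 6 times in WT and 17, 4 and 9 times in PYK2 KO BMDMs (chromosome X, 20870166 to 20874735). PYK2 KO library 2 held 17 of the 30 PYK2 KO counts, and the lowest normalised values were 1.28 CPM in WT library 1 and 1.39 CPM in PYK2 KO library 3. The pooled counts were 21 and 30, a ratio of 1.58 with a 95% counting interval of 0.874 to 2.90, and Timp1 was not tested. Timp1 lies inside Syn1 on the opposite strand, to which 31 to 47 counts were assigned, so the assignment of tags between the 2 genes is uncertain.

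Plaur encodes uPAR, the membrane receptor that holds urokinase at the cell surface (chromosome 7, 24462484 to 24475968). It had 78.4, 73.9 and 95.0 CPM in WT and 95.0, 85.6 and 68.6 CPM in PYK2 KO. The highest values of the genotypes were nearly the same and the lowest was a PYK2 KO library. The means were 82.4 ± 11.1 and 83.0 ± 13.4 CPM (SD, n = 3 mice each), with a log2 fold change of 0.01 (SE 0.12, 95% interval -0.25 to 0.28).

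Plau encodes urokinase itself and lies on chromosome 14 from 20836660 to 20843385, 45.3 Mb from Ptk2b. It had 15, 7 and 6 counts in WT and 8, 6 and 6 counts in PYK2 KO. WT library 1 stood above the other 5 libraries, which held 6 to 8 counts. The pooled counts were 28 and 20, a ratio of 0.789 with a 95% counting interval of 0.421 to 1.45, and Plau was not tested.

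The spread between mice of 1 genotype differed from gene to gene. Mmp12 had a coefficient of variation (CV, the SD as a percent of the mean) of 27.9% in WT and 30.8% in PYK2 KO, where counting error alone would give 7.14% and 7.35%. Adam8 varied by 23.2% and 14.4%, where counting would give 1.90% and 1.97%. Mmp14, at a count close to that of Mmp12, varied by only 7.07% and 4.36%, where counting would give 7.24% and 7.62%, and Mmp19 by 7.57% and 1.93%, where counting would give 6.97% and 7.43%. The spread of Mmp12 and Adam8 was thus several times the counting error in both genotypes. That of Mmp14 was under it, and that of Mmp19 was slightly above it in WT and well under it in PYK2 KO. Each CV came from 3 libraries and is imprecise, so values close to or under the counting error cannot be told apart from it. The counting error also takes each count as a separate molecule, which the sources used here do not state.

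**Figure D3:**
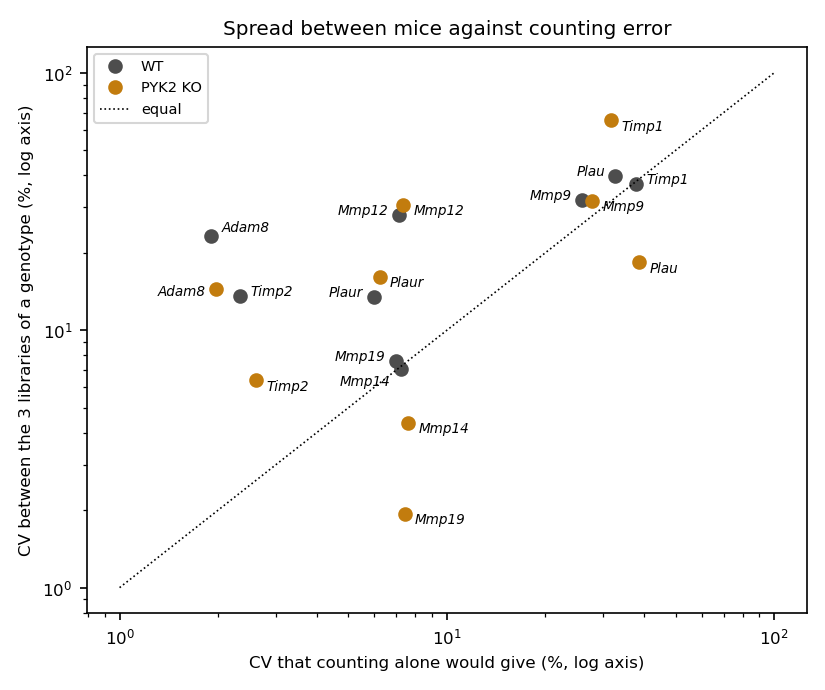
Coefficient of variation between the 3 libraries of a genotype (vertical axis, %, log scale) against the one that counting error alone would give (horizontal axis, %, log scale) for 9 genes, without Mmp13, with a dotted line where both are equal. Mmp12, Adam8, Timp2, Plaur and, by less, Mmp9 lie above the line in both genotypes, Mmp14 lies under it in both, and Mmp19, Timp1 and Plau lie on different sides of it in WT and PYK2 KO.

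Ratios of an enzyme to its inhibitor were compared within each library as a description, since no scaling enters them. The log2 ratio of Mmp14 to Timp2, partners in the activation of proMMP2, was -3.31, -3.37 and -3.08 in WT and -3.13, -3.06 and -3.09 in PYK2 KO. WT library 6 lay among the PYK2 KO values and the other WT libraries below them, the same split as for Timp2 alone. The log2 ratio of Mmp12 to Timp2 was -3.57, -3.48 and -2.54 in WT and -3.54, -2.98 and -2.60 in PYK2 KO. It varied within each genotype by far more than between their means of -3.20 and -3.04. Ratios to Timp1 rested on as few as 4 counts, with a log2 ratio of Mmp12 to Timp1 of 4.12 to 5.28 in WT and 2.97 to 5.32 in PYK2 KO. The log2 ratio of Plau to Plaur ran from -5.50 to -4.36 in WT and from -5.36 to -5.21 in PYK2 KO, with Plau as low as 6 counts. The genotypes overlapped in these ratios, as they did in that of Mmp9 to Timp1.

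Mmp12 and Mmp13 belong to a cluster of 10 MMP genes that spans 427 kb of chromosome 9. Of these, 5 had 0 counts in every library, 6 had at most 3, and only Mmp12, Mmp8 and Mmp27 exceeded 5 counts in any library. Mmp1b, which overlaps the end of Mmp12 on the opposite strand, had 0 counts. Mmp8 encodes neutrophil collagenase and had 175, 128 and 167 CPM in WT and 160, 205 and 272 CPM in PYK2 KO. Its log2 fold change was 0.44 (SE 0.15, unadjusted p = 0.0106, adjusted p = 0.596, edgeR's quasi-likelihood test, Benjamini-Hochberg adjusted). Mmp27, which starts 2.91 kb after the end of Mmp8 on the same strand, had 31.7, 16.0 and 11.2 CPM in WT and 19.9, 28.4 and 39.0 CPM in PYK2 KO, with a log2 fold change of 0.53 (SE 0.29). With 1 library left out, the estimate of Mmp27 ran from 0.25 without PYK2 KO library 4 to 1.08 without WT library 1. That of Mmp8 ran from 0.22 without PYK2 KO library 4 to 0.61 without PYK2 KO library 2, and neither gene passed in any of these fits. Both genes were highest in WT library 1 and PYK2 KO libraries 3 and 4, the 3 libraries with the most B2m. In these 3 libraries the 10 neutrophil markers summed to 183, 233 and 232 CPM, against 130 to 148 CPM in the other 3. S100a9 had the largest part in the split, with 70.7, 93.2 and 103 CPM against 30.0 to 50.7 CPM. Without S100a9, left out after its values were seen, the other 9 markers summed to 112, 140 and 129 CPM in these 3 libraries and to 84.7 to 114 CPM in the other 3. PYK2 KO libraries 3 and 4 then still lay above the other 3, and WT library 1 lay just below WT library 6. The part of these genes in Mmp8 and Mmp27 was not tested.

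**Figure D4:**
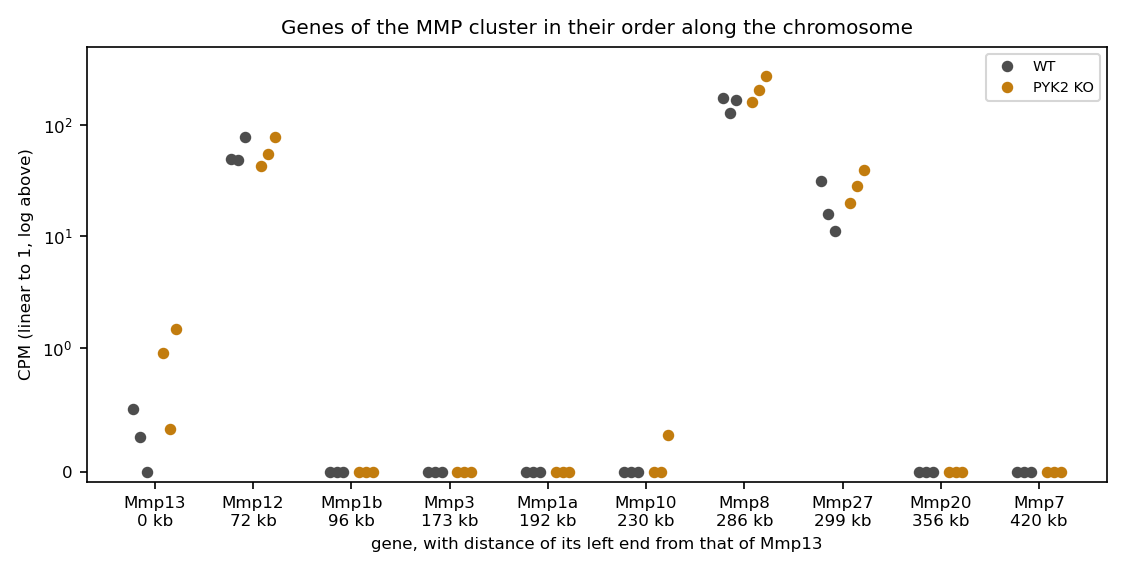
CPM of the 10 genes of the MMP cluster (vertical axis, linear up to 1 and logarithmic above) in 3 WT and 3 PYK2 KO libraries, 1 point a library, ordered along the chromosome with the distance from the left end of Mmp13. Mmp12, Mmp8 and Mmp27 lie between 11.2 and 272 CPM, and the other 7 lie at or below 1.49 CPM.

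Other genes of these systems were counted from 7 lists of 98 genes, of which 44 were tested, 2 passed as higher and 0 as lower in PYK2 KO, against 0.255% of all tested genes in either direction. Unadjusted p-values were under 0.05 in 6 of 44, against 6.03% of all tested genes, and the genotypes were apart in 7, against 10.2%. The median log2 fold change of the 44 was 0.03. The lists were chosen with earlier results of these data known, so these shares cannot show that the lists differ from other genes. Of 18 other MMPs, 14 had at most 3 counts in every library, 8 of them 0, and only Mmp8 and Mmp27 were tested. None of 5 tested ADAM and ADAMTS genes passed, where Adam17, the TNF-releasing sheddase, had a log2 fold change of 0.09 (SE 0.08) and Adam9 one of -0.06 (SE 0.09).

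Of 13 other protease inhibitors 5 were tested and 1 passed. Slpi, which blocks neutrophil elastase and other serine proteases, had 43.4, 49.5 and 56.8 CPM in WT and 73.5, 84.5 and 74.5 CPM in PYK2 KO. Every PYK2 KO value lay above every WT value. It rose by 0.64 on the log2 scale (SE 0.11, adjusted p = 0.0247, edgeR's quasi-likelihood test, Benjamini-Hochberg adjusted), from 49.9 ± 6.69 to 77.5 ± 6.10 CPM (SD, n = 3 mice each). Without each of 5 libraries in turn (all but WT library 6) its log2 fold change was 0.55 to 0.68 and its adjusted p 0.0568 to 0.193 by the same edgeR test, above the threshold of 0.05. Spint1, an inhibitor of serine proteases at the cell surface, had a log2 fold change of -0.26 (SE 0.28).

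Of 14 matrix proteins 3 were tested, all 3 were higher in PYK2 KO without overlap, and 1 passed. All 3 had an unadjusted p under 0.05. Over all tested genes 10.2% did not overlap, 6.03% had such a p and 0.255% passed, and nothing was tested on the list as a whole. Spp1, which encodes osteopontin, a secreted ligand of integrins and CD44 that MMPs can cleave, had 3123, 3092 and 3965 CPM in WT and 4610, 4654 and 4616 CPM in PYK2 KO. It rose by 0.45 on the log2 scale (SE 0.09, adjusted p = 0.0430, edgeR's quasi-likelihood test, Benjamini-Hochberg adjusted), from 3393 ± 496 to 4627 ± 23.7 CPM (SD, n = 3 mice each). Without each of the same 5 libraries its log2 fold change was 0.38 to 0.45 and its adjusted p 0.0858 to 0.411, and without WT library 6 they were 0.57 and 0.000454, by the same edgeR test. Lamc1, a laminin chain, had a log2 fold change of 0.32 (SE 0.14, adjusted p = 0.778, same edgeR test). The other tested gene, Thbs1, which encodes thrombospondin 1 and was named after its values were seen, had one of 0.37 (SE 0.16, unadjusted p = 0.0365, adjusted p = 0.783, same edgeR test).

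None of the remaining lists held a gene that passed. Of 5 tested genes of the plasminogen system, Plgrkt, a plasminogen receptor, had a log2 fold change of -0.07 (SE 0.09) and Anxa2, which helps bind plasminogen, one of -0.05 (SE 0.08). Of 12 tested partners of MMPs and uPAR, Itgb3, an integrin chain, had -0.19 (SE 0.11) and Furin, a protease that activates proMMP14, had -0.13 (SE 0.08). Of 12 tested cathepsins and glycosidases of the matrix, Ctsk, a collagen-cleaving cathepsin of osteoclasts, had 29.4, 24.6 and 31.5 CPM in WT and 19.9, 22.2 and 22.9 CPM in PYK2 KO. The genotypes of Ctsk did not overlap, and its log2 fold change was -0.39 (SE 0.15, unadjusted p = 0.0194, adjusted p = 0.674, edgeR's quasi-likelihood test, Benjamini-Hochberg adjusted). The 7 osteoclast markers, which include Ctsk, summed to 42.5 to 47.0 CPM in WT and 33.4 to 39.0 CPM in PYK2 KO, with Ocstamp and Calcr at 0. Most of this sum was Ctsk itself, and the other 6 markers summed to 15.1 to 17.9 CPM in WT and 13.5 to 16.6 CPM in PYK2 KO, which overlap. Hyal1, a hyaluronidase, had a log2 fold change of 0.21 (SE 0.15).

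**Figure D5:**
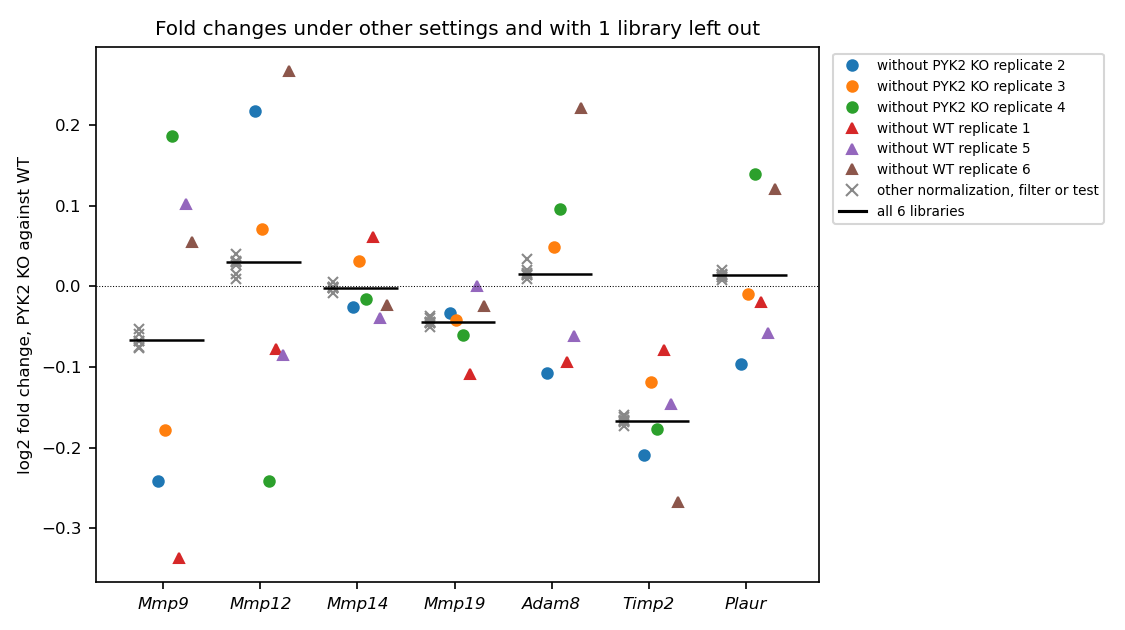
Log2 fold change in PYK2 KO against WT (vertical axis) of the 7 tested genes with all 6 libraries (black line), under other normalizations, filters and tests (grey crosses) and with 1 library left out (coloured circles for a PYK2 KO library, triangles for a WT library). Leaving out a library moved Mmp12 from -0.24 to 0.27, and Timp2 stayed below 0 throughout, between -0.27 and -0.08.

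Normalization, filter and test moved the 7 estimates little, and leaving out a library moved them more. Under the 7 alternatives that kept all libraries, Mmp12 ran from 0.01 to 0.04 and Adam8 from 0.01 to 0.03 on the log2 scale. With 1 library left out, 5 of the 7 members changed sign in some fit, and Timp2 and Mmp19 did not. The Mmp19 estimate was however almost 0 without WT library 5, at -2.1e-05. In the 13 alternatives 0 members passed the adjusted threshold.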

How the data were processed

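RNA of 6 BMDM cultures (3 WT and 3 PYK2 KO mice) was analyzed. The authors deposited raw gene counts, whole numbers from MARS-seq libraries run through the UTAP pipeline, with no normalization. The submitters' processing notes name cutadapt, STAR and mm10, with versions not given in the sources used here. Collapse of molecular identifiers and strand use are not given either, so counting intervals cover counting error only.

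Counts were fitted over the whole table in R 4.3.3 with edgeR 4.0.16 (filterByExpr with a minimum count of 10, TMM, quasi-likelihood F test, Benjamini-Hochberg threshold 0.05) on genotype alone. SEs were derived from each gene's fold change and F value. The code was tested on simulated data. Alternatives were DESeq2 1.42.0, limma 3.58.1 (voom), other factors, filters and tests, and each library left out. A floor of 3 counts was used. Untested genes were given as ratios of pooled counts with exact 95% intervals. No pair of libraries within a genotype was a duplicate, and pairs across genotypes were not compared. The members and lists were chosen with earlier results of these data known. The rule named all 10 members, Ptk2b and, from each list, genes past the threshold and the 2 with the smallest p. Thus B2m, S100a9 and genes that overlap a member were named after their values were seen. Positions came from GENCODE M21 (GRCm38), which matches mm10, and promoters from RefSeq (GRCm38.p6).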

Additional observations from a re-analysis of the deposited data

How the results depend on the processing

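The number of members past the threshold was 0 under all 13 alternatives. Of 90 member estimates, 74 kept their direction and 16 changed sign, none of them past the threshold: without scaling factors Mmp14 was 0.0056 on the log2 scale, and with 1 library left out Mmp9 ran from -0.34 to 0.19, Mmp12 from -0.24 to 0.27, Mmp14 from -0.039 to 0.061, Adam8 from -0.11 to 0.22 and Plaur from -0.10 to 0.14. Without the filter on low counts Mmp13 had an estimate of 1.60, Timp1 of 0.63 and Plau of -0.33, none past the threshold. A minimum of 10 counts in every library left out Mmp9. Timp2 had an unadjusted p under 0.05 without the filter (0.0481) and without WT library 6.

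Over all tested genes 25 passed, against 159 without the filter (95 higher, 64 lower), 45 by the likelihood ratio test and 14 to 34 with 1 library left out, of which the cause was not tested. Of the related genes, 2 passed, and with 1 library left out 0 to 2 did. Mmp8 passed without the filter alone (0.44, adjusted p = 0.000428, against 0.105 to 1.00 in its other alternatives, edgeR, DESeq2 and limma), and Anxa2 ran from -0.12 to 0.012 with 1 library left out. Mmp9, Mmp13, Timp1 and Plau had at most 19 counts in a library, and the part of depth in their wide intervals was not tested for Mmp9, while those of the other 3 hold counting error alone. No paired analysis was possible because the genotypes share no replicate number.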
